A study of Mus musculus with 5 samples.

Results

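The genes described here are 9 genes counted among the targets of p53 that act on DNA repair, nucleotide supply, sugar metabolism and the mitotic spindle: Rrm2b, Polk, Xpc, Ddb2, Ercc5, Gtse1, Psrc1, Tigar and Plk2. They were taken by symbol from a table of the whole transcriptome, as 9 of 22653 single genes, and Tigar stands there under its older name 9630033F20Rik. Each of the 9 has exactly 1 row of its own, and none appears in a row that names several genes. The RNA came from mouse forelimbs at E11.5 (47 to 48 somites), from 2 Prmt5cKO samples and 3 control samples of mixed C57BL/6 and Swiss Webster strain. The Prmt5cKO genotype is Prx1Cre+/-;Prmt5c/c, in which the Prx1 promoter drives Cre in the mesenchyme of the limb bud, so that ectoderm, blood, vessel and nerve cells of the same forelimb lie outside its main domain. The labels call the other samples control without naming their alleles, and whether embryos were pooled is not stated there. The authors joined the samples of each genotype into 1 FPKM value per gene (fragment counts scaled to transcript length and to the library total), so levels are given without an SD, and how deeply each sample was sequenced is unknown.

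The transcription factor p53 answers DNA damage and other stress by raising the transcription of genes that stop the cell cycle, kill the cell or mend the damage. The 9 genes are counted among its targets in repair, nucleotide supply, sugar metabolism and the spindle. Of these, the mouse Ddb2 gene is known to lack the p53 response, as set out below. Nucleotide excision repair cuts out bulky lesions: Xpc and Ddb2 recognise the damaged site and Ercc5, also called Xpg, cuts the strand on its 3′ side. Polk encodes a polymerase that copies past damaged bases, and Rrm2b a small subunit of ribonucleotide reductase that makes deoxynucleotides outside S phase. Tigar lowers fructose-2,6-bisphosphate and so turns glucose towards the pentose phosphate pathway, Gtse1 and Psrc1 bind microtubules in dividing cells, and Plk2 is a Polo-like kinase that is induced by stress.

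In Prmt5cKO forelimbs 4 of the 9 genes rose (Gtse1, Polk, Psrc1 and Ercc5), 2 fell (Rrm2b and Ddb2), and 3 did not pass the threshold (Xpc, Tigar and Plk2). A gene counted as risen or fallen where its mean over the genotypes was at least 1 FPKM and its q-value, the authors' adjusted p-value, was under 0.05. Over all 10614 genes tested at that level 24.1% passed, 4.83% as rises and 19.3% as falls. Rises were thus rare in the background, and the 2 falls of the 9 genes lie near the background share of falls. The 9 genes were chosen with earlier results of these data known, so the count of 4 rises is descriptive and tests nothing. The 4 rises also passed a q under 0.01, a demand of at least 1.5-fold, no minimum level and a minimum mean of 5 FPKM, where 3.22%, 1.59%, 3.44% and 5.17% of all tested genes rose. Under the same settings 1, 1, 2 and 1 of the 9 fell, where 13.6%, 6.81%, 13.6% and 20.6% of all tested genes fell. All 9 genes were at 1 FPKM or more in both genotypes, so none entered through its higher genotype alone. The median log2 fold change of the 9 was 0.08, against -0.13 over all tested genes. In these whole limbs a change in the number of cells of a type and a change of RNA per cell cannot be told apart.

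**Figure D1:**
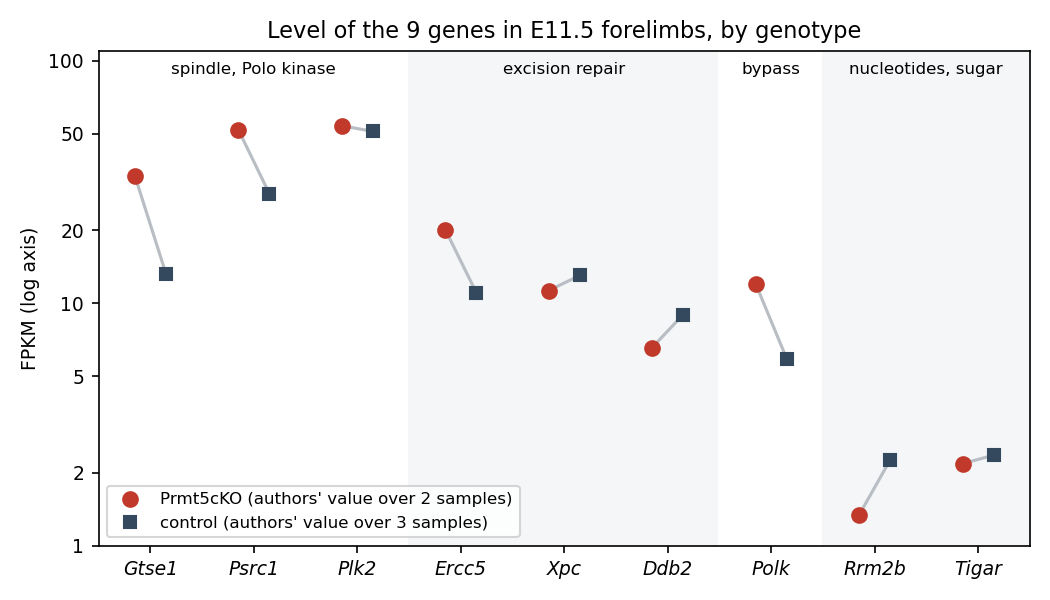
Level of each of the 9 genes in FPKM on a log axis, with circles for Prmt5cKO forelimbs and squares for control forelimbs, 1 authors' value per genotype and no error bars because none can be computed. Gtse1, Psrc1, Ercc5 and Polk stand higher in Prmt5cKO, Ddb2 and Rrm2b stand lower, and the points of Plk2, Xpc and Tigar lie close together.

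Other differences between the forelimbs stand beside every value given here. Prmt5 itself stood at 12.5 FPKM in Prmt5cKO and 40.9 FPKM in control. Markers of limb mesenchyme were all present, 15 of 15 at a mean of 1 FPKM or more, with 2 risen and 11 of the 13 tested ones not past the threshold. Of 10 genes at the core of the p53 response 9 rose, among them Cdkn1a at 19.9 FPKM in Prmt5cKO and 3.45 FPKM in control. Xist, the RNA that coats the inactive X, was at 0.392 FPKM in Prmt5cKO and 87.3 FPKM in control, and the Y-linked Ddx3y at 21.8 FPKM in Prmt5cKO and 0.0840 FPKM in control, so genotype and the sex of the embryos cannot be told apart for any of the 9 genes. None of the 9 lies on the X or the Y chromosome. Macrophage markers were higher in Prmt5cKO for 14 of 14 genes, with 10 of 13 tested ones risen, none listed at 0 and summed levels of 79.5 FPKM in Prmt5cKO and 42.6 FPKM in control; their part in the results below was not tested. Among markers of other cells 4 of 11 tested genes of surface ectoderm and ridge rose and none fell by the authors' q. By the same q 2 of 7 endothelial, 1 of 8 erythroid and 2 of 4 nerve and Schwann cell genes fell. Over all tested genes 4.83% rose and 19.3% fell, so the endothelial and erythroid falls lie near the background share. Muscle markers went both ways: 2 of 6 tested at a mean of 1 FPKM or more fell, Tnnt1 and Myh3, while Pax3, a gene of muscle precursors with a mean under that limit, was at 1.14 FPKM in Prmt5cKO and 0.525 FPKM in control (log2 fold change 1.11 and q = 0.00187, the authors' deposited table). These 3 muscle genes are named after their values were seen.

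Gtse1, which encodes a microtubule-binding protein made in S and G2 phase that also holds p53 down after damage, changed most. It stood at 33.5 FPKM in Prmt5cKO and 13.2 FPKM in control. In the authors' deposited table its log2 fold change was 1.34 and its q was listed as 0, which placed it 33rd from the top of 513 risen genes. The gene lies on the plus strand of chromosome 15 from 85859745 to 85876573 (GRCm38, GENCODE M21). RefSeq gives it a pair of start sites, and the window of the downstream one is shown because it holds one of the closest matches to the p53 consensus among the 6 genes that have a window. The window is chr15:85859696-85859995 on the plus strand of GRCm38.p6, and capitals mark the bases that meet the consensus.
Gtse1: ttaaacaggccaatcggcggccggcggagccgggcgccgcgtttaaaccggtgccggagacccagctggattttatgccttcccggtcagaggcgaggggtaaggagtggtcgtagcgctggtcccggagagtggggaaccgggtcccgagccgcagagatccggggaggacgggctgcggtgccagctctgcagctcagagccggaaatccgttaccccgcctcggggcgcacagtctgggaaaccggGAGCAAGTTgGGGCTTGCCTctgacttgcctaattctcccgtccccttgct
The match runs from position -1 to position 19 around the start site, meets 19 of 20 positions and has no spacer. The window of the other Gtse1 start site meets 16 positions at best.

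Psrc1, whose product works with microtubule ends to gather chromosomes at the spindle equator, was the other spindle gene of the 9. Its level was 52.0 FPKM in Prmt5cKO and 28.3 FPKM in control. In the authors' deposited table this was a log2 fold change of 0.88, with q listed as 0. It lies on the plus strand of chromosome 3 from 108383839 to 108388231. Both genes were thus higher by 1.84 times or more, and after Plk2 they had the highest levels of the 9 genes in Prmt5cKO.

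Plk2, the stress-induced member of the Polo-like kinases, had the highest level of the 9 in both genotypes, with 54.0 FPKM in Prmt5cKO and 51.1 FPKM in control. It did not pass the threshold, since the authors' deposited table gives a log2 fold change of 0.08 and q = 0.706. The gene lies on the plus strand of chromosome 13 from 110395046 to 110400844. Among its family Plk2 made up 43.9% of the summed FPKM in Prmt5cKO and 45.6% in control. Plk1, the kinase of mitotic entry, was at 38.0 FPKM in Prmt5cKO and 32.8 FPKM in control, and Plk4, which starts centriole duplication, at 29.4 FPKM in Prmt5cKO and 27.2 FPKM in control. Plk3 was near the lower limit, with 1.25 FPKM in Prmt5cKO and 0.860 FPKM in control. None of the 4 tested kinases passed the authors' q under 0.05, and the table holds adjusted values only, so no count at an unadjusted p can be given. Their median log2 ratio with 1 FPKM added was 0.16.

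Of 36 fixed genes of the spindle and of microtubule ends 29 were tested at a mean of 1 FPKM or more. Of these 5 rose and 3 fell, beside 4.83% risen and 19.3% fallen over all tested genes. At a q under 0.01 there were 4 rises and 1 fall, beside 3.22% risen and 13.6% fallen over all tested genes. Gtse1 and Psrc1 were the rises with the largest fold. The other three rises, named after their values were seen, were the checkpoint kinase gene Bub1, the spindle gene Hmmr and the kinetochore gene Nuf2, for which the authors' deposited table gives log2 fold changes of 0.25, 0.48 and 0.28. Knstrn, which encodes a kinetochore-associated protein, fell by 0.70 (log2, the authors' deposited table); the other two falls were Ccnb2 and Mapre3, again named after their values were seen. Aurka and Tacc3, the spindle genes set as partners, did not pass the threshold. Aurka, the kinase of the spindle poles, was at 60.7 FPKM in Prmt5cKO and 57.6 FPKM in control (q = 0.637 in the authors' deposited table). Tacc3, which stabilises spindle microtubules, was at 62.6 FPKM in Prmt5cKO and 59.1 FPKM in control (q = 0.682 in the authors' deposited table). The list median of log2 ratios, computed with 1 FPKM added to each value, was 0.03, and without Gtse1 and Psrc1 it was -0.02, against -0.12 over all genes at that level.

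Polk, the DNA polymerase kappa gene, was the bypass polymerase gene with the largest rise. It was at 12.0 FPKM in Prmt5cKO and 5.91 FPKM in control, and the authors' deposited table gives a log2 fold change of 1.03 and lists q as 0. The gene lies on the minus strand of chromosome 13 from 96480690 to 96542579. Within the Y family of polymerases Polk made up 22.6% of the summed FPKM in Prmt5cKO and 15.6% in control, and it ranked 2nd of 4 in Prmt5cKO and 3rd of 4 in control. Polh, the polymerase that copies past ultraviolet damage, was at 11.2 FPKM in Prmt5cKO and 11.9 FPKM in control (q = 0.701 in the authors' deposited table). The p53 response of Polk is known from mouse cells. RefSeq lists a start site inside the gene as well as the one at its upstream end, and the inner window is shown because it holds the other close match. It is chr13:96519138-96519437 on the minus strand of GRCm38.p6, with capitals for the bases that meet the consensus.
Polk: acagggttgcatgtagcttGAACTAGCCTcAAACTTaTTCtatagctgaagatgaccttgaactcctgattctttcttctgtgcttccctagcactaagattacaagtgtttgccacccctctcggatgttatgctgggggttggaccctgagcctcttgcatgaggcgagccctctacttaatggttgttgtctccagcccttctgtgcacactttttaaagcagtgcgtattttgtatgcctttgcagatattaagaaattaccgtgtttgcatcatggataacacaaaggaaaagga
This match lies from position -231 to position -211 before the inner start site, meets 19 of 20 positions and has a spacer of 1 base. The window at the upstream end of Polk meets 16 positions at best, and 1.09% of all windows meet at least 19. Whether p53 acts through the printed match was not tested.

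Of 16 fixed genes of bypass synthesis 15 were tested, and Poln, which was not, stands only in a row shared with another gene. Over all tested genes 4.83% rose and 19.3% fell, and of the 15 bypass genes 3 rose and 1 fell. Besides Polk these were Rev1, the scaffold to which the other bypass polymerases bind, at 25.9 FPKM in Prmt5cKO and 16.2 FPKM in control (log2 fold change 0.68 and q = 2.7e-06, the authors' deposited table), and Polq, named after its values were seen (log2 fold change 0.25, the authors' deposited table). Mad2l2, the accessory subunit of polymerase zeta, fell by 0.51 (log2, the authors' deposited table). The median log2 ratio of the list, with 1 FPKM added, was -0.05, and without Polk it was -0.06.

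Ercc5 was the only gene of the excision repair list that rose, of 27 tested at a mean of 1 FPKM or more. Over all tested genes 4.83% rose, so 1 rise among 27 lies near the background share. Ercc5 was at 20.1 FPKM in Prmt5cKO and 11.1 FPKM in control. According to the authors' deposited table the log2 fold change was 0.86 and q was listed as 0. It lies on the plus strand of chromosome 1 from 44147744 to 44181260. Ercc1, which cuts the opposite side of the lesion together with Ercc4, fell to 16.7 FPKM in Prmt5cKO, against 24.4 FPKM in control, a log2 fold change of -0.55 with q = 0.0123 by the authors' deposited table.

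The damage sensors of the pathway did not rise. Ddb2, the small subunit of the ultraviolet damage sensor, was at 6.57 FPKM in Prmt5cKO and 8.98 FPKM in control. It fell by 0.45 on the log2 scale, and the authors' deposited table gives q = 8.7e-04. Human DDB2 is a known p53 target, whereas the mouse gene is known to lack this response. Ddb1, its large partner, was far more abundant, with 268 FPKM in Prmt5cKO and 320 FPKM in control, and did not pass the threshold (q = 0.178 in the authors' deposited table). Xpc, which opens repair across the genome, was at 11.3 FPKM in Prmt5cKO and 13.02 FPKM in control. It did not pass the threshold, as the authors' deposited table gives a log2 fold change of -0.21 and q = 0.377, close to the median of -0.13 over all tested genes. Xpa, which checks the opened lesion, was at 8.78 FPKM in Prmt5cKO and 11.1 FPKM in control (q = 0.380 in the authors' deposited table). Ddb2 lies on the minus strand of chromosome 2 from 91211572 to 91236982, and Xpc on the minus strand of chromosome 6 from 91489305 to 91515888.

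Across the excision repair list 1 gene rose, 2 fell and 24 did not pass, beside 4.83% risen and 19.3% fallen over all tested genes. Of the rest, 2 were not tested by the authors, and 1 stands only in a row shared with another gene. At a q under 0.01 Ddb2 was the only fall, where 13.6% of all tested genes fell. The median log2 ratio with 1 FPKM added was -0.02, and -0.01 without Ercc5, Ddb2 and Xpc. The 3 excision repair genes among the 9 thus held 1 rise, 1 fall and 1 gene not past the threshold, in a pathway whose other tested members gave 1 fall and 23 genes not past it.

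Rrm2b, the small reductase subunit known in human cells as the p53-inducible one, fell. It was the lowest of the 9 genes, at 1.34 FPKM in Prmt5cKO and 2.25 FPKM in control. In the authors' deposited table its log2 fold change was -0.75 and q was 0.0231, which missed a stricter limit of 0.01. The gene lies on the minus strand of chromosome 15 from 37923952 to 37961318. The replication partner Rrm2, the small subunit of S phase, was at 102 FPKM in Prmt5cKO and 92.9 FPKM in control (q = 0.463 in the authors' deposited table), and the large subunit Rrm1 at 110.4 FPKM in Prmt5cKO and 105 FPKM in control (q = 0.521 in the authors' deposited table). Rrm2b therefore made up 1.30% of the summed small subunit FPKM in Prmt5cKO and 2.37% in control.

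Of 20 tested genes of deoxynucleotide supply 2 rose and 3 fell, Rrm2b among the falls, beside 4.83% risen and 19.3% fallen over all tested genes. At a q under 0.01 these became 1 rise and 1 fall. Tk1, the thymidine kinase of S phase, fell to 49.4 FPKM in Prmt5cKO, against 68.5 FPKM in control, with a log2 fold change of -0.47 by the authors' deposited table. Nme1, a nucleoside diphosphate kinase gene, and Mthfd1, an enzyme gene of folate metabolism, rose by log2 0.31 and 0.38, as the authors' deposited table gives it. Dctd, which supplies deoxyuridylate, was the remaining fall and is named after its values were seen. The median log2 ratio with 1 FPKM added was -0.05, and -0.03 without Rrm2b.

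Tigar was low and did not pass the threshold. It was at 2.18 FPKM in Prmt5cKO and 2.36 FPKM in control, and the authors' deposited table gives a log2 fold change of -0.12 with q = 0.806. That fold is so close to the median of all tested genes that its sign turned when the median was subtracted, to 0.01. The gene lies on the minus strand of chromosome 6 from 127085116 to 127109557. Of 14 tested genes of fructose bisphosphate and pentose phosphate metabolism none rose by the authors' q and 3 fell, Pgd, Taldo1 and G6pdx, whose log2 fold changes by the authors' deposited table were -0.48, -0.35 and -0.42, with q of 1.3e-10, 0.0272 and 0.0455. That count is near the 19.3% of all tested genes that fell, and Pgd alone passed at a q under 0.01. G6pdx and Pgd encode the oxidative steps that make NADPH and Taldo1 a later step that rearranges sugars. G6pdx is X-linked. Pfkfb3, which makes the fructose bisphosphate that Tigar removes, was at 3.13 FPKM in Prmt5cKO and 3.07 FPKM in control (q = 0.945 in the authors' deposited table). The median log2 ratio of the list with 1 FPKM added was -0.11, close to the -0.12 of all genes at that level.

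**Figure D2:**
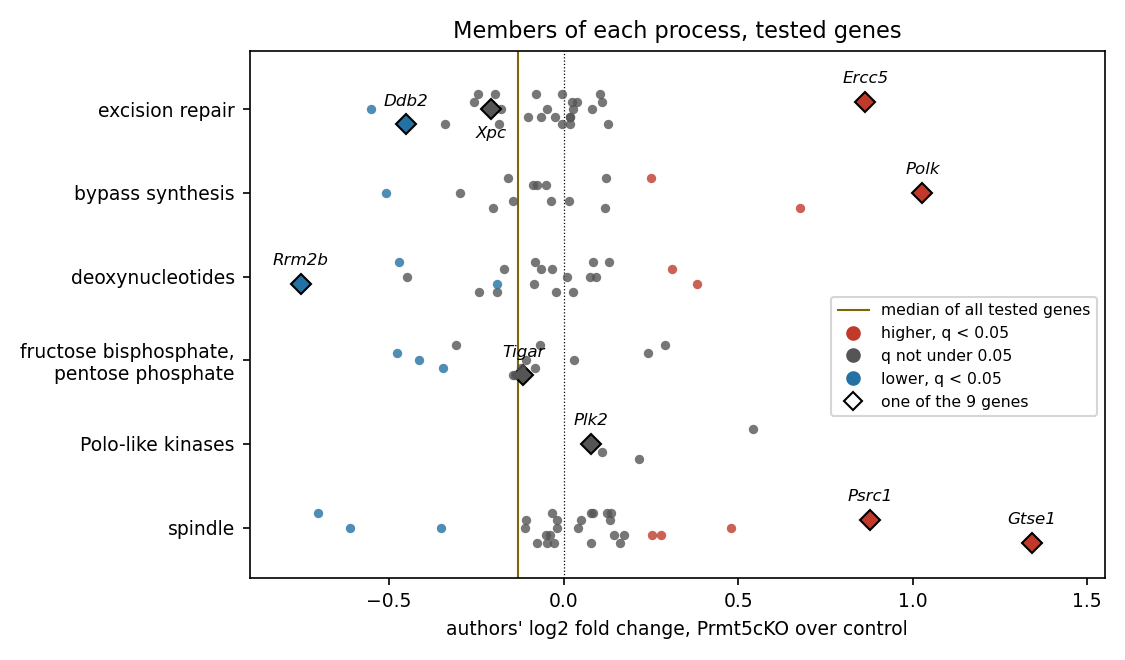
Authors' log2 fold change of Prmt5cKO over control for every tested gene with a mean of at least 1 FPKM in 6 process lists, with diamonds for the 9 genes, colours for genes past the authors' q under 0.05, a dotted line at 0 and a solid line at the median of all tested genes (-0.13). Gtse1, Psrc1, Polk and Ercc5 lie farthest to the right of their lists and Rrm2b farthest to the left of its list.

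Set among all tested genes, the 9 spanned both sides of the distribution. Gtse1 and Polk, at ranks 33 and 63 of the 513 risen genes, and Psrc1 and Ercc5, at ranks 83 and 86, lay in the top 1 percentile by fold, at percentiles 99.7, 99.4, 99.1 and 99.1. Plk2 stood at percentile 79.7, Tigar at 52.4 and Xpc at 38.5. Ddb2 stood at percentile 14.2 and Rrm2b at 4.11, which made them the 1149th and the 398th deepest of 2049 falls. Gtse1 and Polk also appear in the authors' shorter deposited table, whose 208 rows all have at least a 2-fold change and a q under 0.01. The levels of the 9 fell in a different order in each genotype: Polk was above Xpc and Ddb2 in Prmt5cKO and below both in control, and Ercc5 was above Xpc in Prmt5cKO and below it in control. With 1 value per genotype, whether neighbours in this order differ beyond their spread cannot be said.

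**Figure D3:**
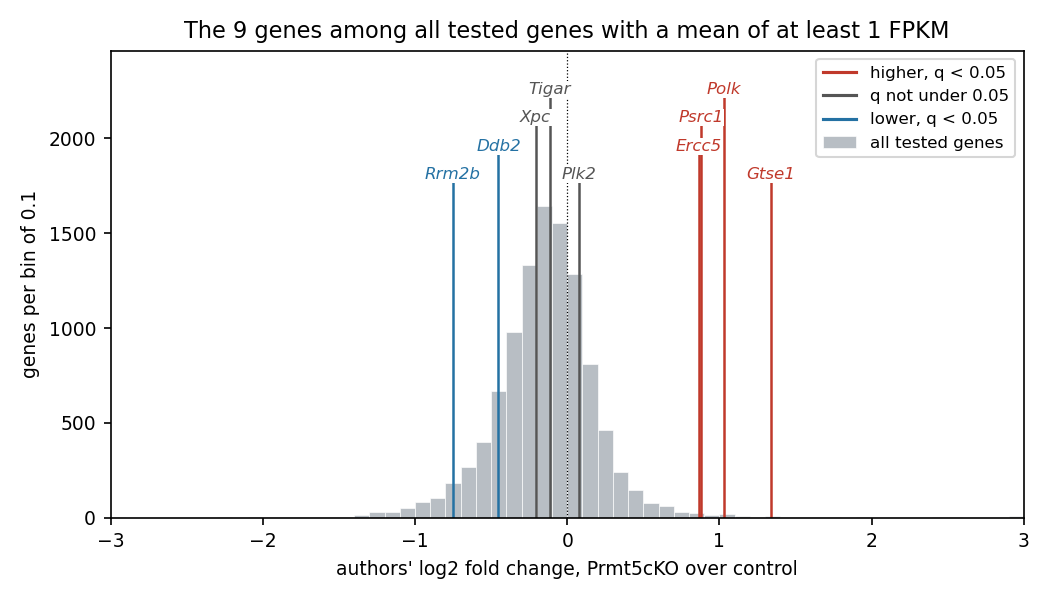
Histogram of the authors' log2 fold change of Prmt5cKO over control for 10614 tested genes with a mean of at least 1 FPKM, in bins of 0.1 with values beyond 3 drawn in the end bins, and vertical lines for the 9 genes. Gtse1, Polk, Psrc1 and Ercc5 lie in the sparse right tail, whereas Xpc, Tigar and Plk2 lie in the body of the distribution.

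Genes close by on the chromosome were read to see whether a member's value could be shared with a neighbour. Whether the libraries kept the strand is unknown, so reads where genes on opposite strands overlap cannot be assigned to one of them. Ddb2 overlaps Acp2, a lysosomal acid phosphatase gene on the opposite strand, over 2527 bases, of which 652 are exonic in both. Acp2 fell together with Ddb2, with 7.83 FPKM in Prmt5cKO and 10.9 FPKM in control, and the authors' deposited table gives it a log2 fold change of -0.48 and q = 4.2e-04. How the reads of the shared stretch were divided is not given, so the fall of Ddb2 is uncertain to that extent. Exons of Rrm2b and Tigar also overlap antisense genes, Gm49085 over 734 bases and Platr31 over 122 bases, which have no row of their own under these symbols.

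Of 7 tested neighbours with a mean of at least 1 FPKM none rose by the authors' q and 2 fell, Acp2 and Ttc38. Over all tested genes 4.83% rose and 19.3% fell, so counts like these among 7 genes lie near the background shares. Ttc38 ends 923 bases upstream of Gtse1 on the same strand and fell to 1.65 FPKM in Prmt5cKO, against 3.44 FPKM in control, for which the authors' deposited table gives a log2 fold change of -1.06 and q = 2.8e-06. Trmu, 2739 bases downstream of Gtse1, did not pass the threshold (log2 fold change -0.17 with q = 0.387, the authors' deposited table). Col4a3bp starts 39 bases from Polk on the other strand and was at 7.81 FPKM in Prmt5cKO and 8.62 FPKM in control (log2 fold change -0.14 with q = 0.287, the authors' deposited table). Bivm, 2974 bases upstream of Ercc5, was at 12.2 FPKM in Prmt5cKO and 12.1 FPKM in control and was not tested by the authors. Lsm3, 40 bases from the start of Xpc, did not pass either (q = 0.357 in the authors' deposited table).

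**Figure D4:**
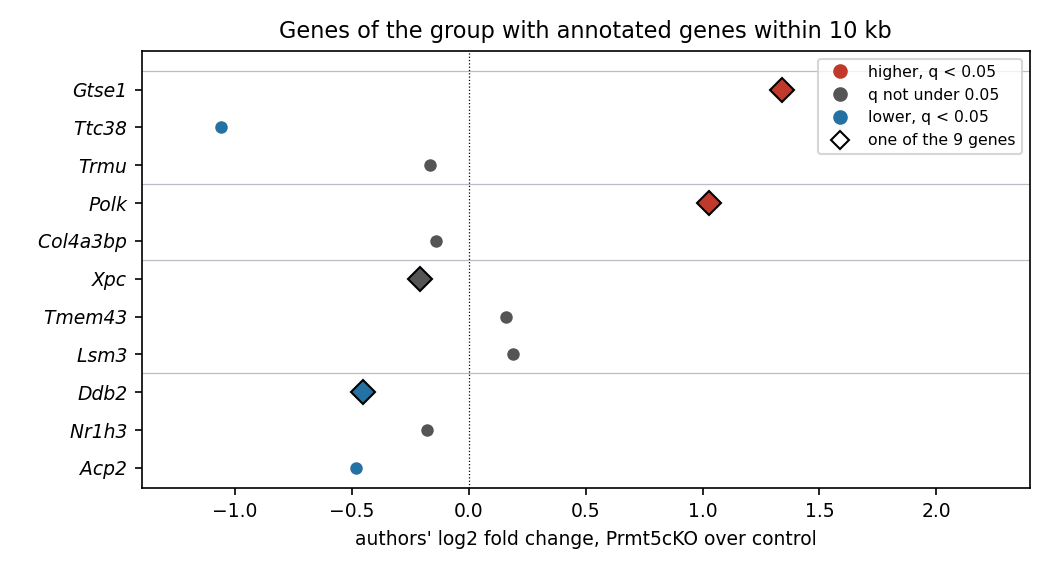
Authors' log2 fold change of Prmt5cKO over control for Gtse1, Polk, Xpc and Ddb2 (diamonds) and, under each, the tested genes within 10000 bases that have a mean of at least 1 FPKM (circles), coloured by the authors' q. Ttc38 lies left of 0 under the risen Gtse1, and Acp2 lies beside the fallen Ddb2, which it overlaps.

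Promoter windows of 300 bases, 250 before and 50 after a start site, were given by RefSeq (GRCm38.p6) for 6 of the 9 genes, in 9 windows, and were searched for the p53 consensus, a pair of decamers with a spacer of 0 to 13 bases that reads the same on both strands. Xpc, Ddb2 and Rrm2b have no window, so all the risen genes were searched and neither fallen gene was. No window of the 6 genes met all 20 positions, which 0.0731% of 32851 windows of all genes did. At least 19 positions, a limit chosen after the sequences were seen, were met in a window of Gtse1 and a window of Polk, and in 1.09% of all windows. Psrc1 and Tigar met 17 positions and Ercc5 and Plk2 met 16, scores that 45.1% and 89.3% of all windows reach or pass. The best match of each of these 4 genes is set out for comparison with the pair printed above and with a window of Cdkn1a. That window of this p53 target meets all 20 positions with a spacer of 12 bases. Another Cdkn1a window meets only 15 positions, a score that 99.5% of all windows reach or pass. Capitals mark bases that meet the consensus, and lower case marks mismatches and the spacer.
Psrc1: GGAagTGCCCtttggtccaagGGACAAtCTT
Tigar: GGtCTAGCTCtGGCAAGaCT
Ercc5: AAGaAAGCCaatatgtgcAAACActTTT
Plk2: AAGCTTcgCTgctcGctCTTGCTC
Cdkn1a: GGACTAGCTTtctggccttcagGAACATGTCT
The Cdkn1a match reads through both decamers without a lower case base, whereas that of Ercc5 breaks inside each decamer. A match is a stretch of letters, and p53 binding was not measured in these samples. Sequence outside the windows was not searched, so a low score does not mean that a gene lacks a p53 element.

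Simpler motifs were counted in the same windows, on both strands. A gene was counted where any of its windows held the motif, and Gtse1, Polk and Psrc1 have a pair of windows each. The shares of all windows are per window, so the gene counts are not strictly comparable with them. A pair of CATG cores with 6 bases between them, a strict form of the p53 element, was in none of the 6 genes and in 0.712% of all windows. CCAAT was in 4 of the 6 (Ercc5, Gtse1, Psrc1 and Tigar) and in 37.4% of all windows, TTTGAA, the letters of the cell cycle homology region of G2 genes, in Ercc5 alone and in 17.9% of all windows, and TATAAA in none of the 6 and in 13.6% of all windows.

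**Figure D5:**
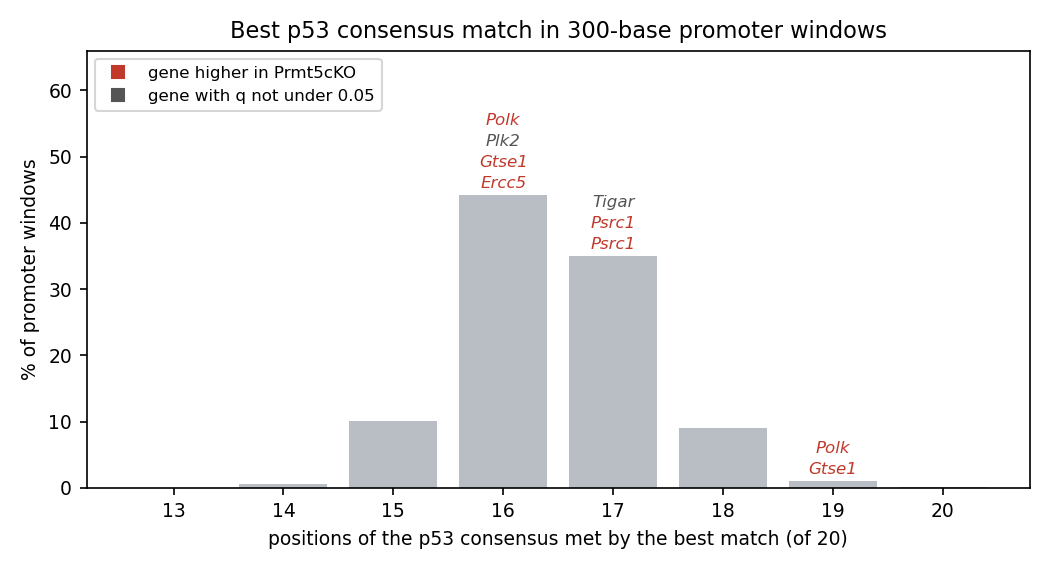
Share of 32851 promoter windows (bars, in percent) by the number of positions of the p53 consensus, of 20, that their best match meets, with the name of a gene written once for each of its windows above the bar of its score. Gtse1 and Polk each have a window at 19 and another at 16, Psrc1 and Tigar stand at 17 and Ercc5 and Plk2 at 16.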

How the data were processed

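Forelimb RNA of 2 Prmt5cKO and 3 control samples, grouped by their titles, was sequenced. Cufflinks 2.1.1, Bowtie2 2.1.0, TopHat2 2.0.10 and the build mm10 stand in the submitters' processing notes, without roles. Per the file headers, the authors deposited 1 FPKM value per genotype, and per row the log2 fold change (Prmt5cKO over control) with a q-value, which is an adjusted p-value; the way replicates were combined, the test and the annotation are details not given in the sources used here. So whether q reflects the spread between samples is unknown, no test could be run over samples, and limma, planned if values per sample were found, was not used. FPKM by definition scales by length and total, and whether the authors also scaled for composition is not given. Among 28092 rows, 4367 (15.5%) carry no gene name, with 2.08% of the summed FPKM in Prmt5cKO and 1.94% in control; they were left out, as were 597 rows of several genes. Repeated symbols kept their row with the highest mean. A log2 fold of 0 with q of 1 was read as not tested (1060 of 11674 single genes at a mean of 1 FPKM or more).

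The members and lists were chosen with earlier results of these data known. Named are the 9 members, set partners (Prmt5 and p53 core genes, Rrm1, Rrm2, Polh, Ddb1, Xpa, Plk1, Plk3, Plk4, Aurka, Tacc3, Pfkfb3), and the 3 genes of each list with the smallest q, ties by fold; neighbours were taken by distance. Genes of like pattern were not sought, as 2 values give no pattern. Python 3.11.15 and pandas 2.3.3 were used; counting and the motif search were tested on simulated data. Coordinates are from GENCODE M21 (GRCm38); proteins were not analysed here.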

Additional observations from a re-analysis of the deposited data

How the results depend on the processing

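The 4 rises among the 9 genes held at a q under 0.01, at a fold of 1.5 or more, with no minimum level and with a minimum mean of 5 FPKM. This follows from their values and is no added evidence. For all 4 q was listed as 0, the smallest fold was 1.82 (Ercc5) and the lowest mean 8.98 FPKM (Polk). The 2 falls became 1 in each setting but that with no minimum level: at a q under 0.01 Ddb2 alone passed (1), at a fold of 1.5 Rrm2b alone (1), and at a minimum mean of 5 FPKM Ddb2 alone (1), by the construction of each limit. Allowing 1 mismatch to the p53 consensus, chosen after the sequences were seen, gave 2 genes with a match in place of 0, beside 1.09% of all windows. Centring on the median of all tested genes turned the fold of Tigar to 0.015 and moved those of Xpc to -0.08 and Plk2 to 0.21; 1 FPKM added to both values moved that of Rrm2b to -0.48. With no minimum level the median log2 ratio of all single genes moved by 0.10, to -0.01, against -0.12 with the minimum. Set against it, the list medians turned to -0.011 for excision repair (0.09 with the minimum), -0.038 for bypass synthesis (0.06) and -0.037 for deoxynucleotide supply (0.07). No gene of these 3 lists is under the minimum and their own medians are identical in both settings, so this is the shift of all genes and no change in the lists. That of fructose bisphosphate and pentose phosphate genes turned to -0.079 (0.01), mostly by the same shift, since its own median moved by 0.02. Those of the spindle and the Polo-like kinase lists moved to 0.026 (0.14) and 0.12 (0.27), with their own medians changed by -0.01 and -0.05. At a minimum of 5 FPKM the fructose bisphosphate list turned to -0.032, with 9 of its 16 genes left. There the falls became 2 in deoxynucleotide supply (3 at a minimum of 1 FPKM) and 2 in the spindle list (3), where 20.6% of all tested genes fell. At a q under 0.01 the falls became 1 in excision repair (2 at 0.05) and 1 in deoxynucleotide supply (3). They also became 1 in the fructose bisphosphate list (3) and 1 in the spindle list (3), and the rises in deoxynucleotide supply became 1 (2). Rises in bypass synthesis became 2 (3) and those in the spindle list 4 (5). Over all tested genes the share of falls went from 19.3% to 13.6% and that of rises from 4.83% to 3.22%. Of 99 results under an alternative 77 counted as kept. A fold was kept if it had the same sign and stayed within 1.5 times its main value. A count was kept within 1.5 times its main value, so some kept counts changed by a gene. A list median was kept if it had the same sign and moved by no more than 0.1. No member's symbol repeats, so another row could not be tried. No replicate could be left out, since only joint values are used. No paired analysis was possible because the files used here hold 1 value per genotype. The unknown depth leaves the precision of the low genes Rrm2b and Tigar unknown.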

Other observations

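The same promoter search was read for 10 genes at the core of the p53 response, of which 9 have an entry. For each gene the score of its best window is given. Cdkn1a, an inhibitor of cyclin-dependent kinases, met all 20 positions of the p53 consensus in its best window and 15 in another. Ccng1, a cyclin gene at 82.2 FPKM in Prmt5cKO and 14.2 FPKM in control, met 19, and so did Bax, which opens the mitochondrial membrane in cell death, at 121 FPKM in Prmt5cKO and 54.2 FPKM in control. Eda2r, a receptor gene at 17.9 FPKM in Prmt5cKO and 0.520 FPKM in control, met 16, as Ercc5 and Plk2 did, so genes with a high fold stood at both high and common scores. Trp53 and Mdm4 met 17, and Mdm2, Phlda3 and Sesn2 met 16. Here too an element outside the windows would not have been seen.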
